A study of Homo sapiens with 12 samples.

Results

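CEACAM1, CEACAM5, CEACAM6, and CEACAM7 encode adhesion glycoproteins of the carcinoembryonic antigen family, part of the immunoglobulin superfamily. Every probe on the Agilent Whole Human Genome array whose RefSeq identifier maps to one of these genes was taken, which gave these 4 of 17240 genes on the array with a symbol and 7 probes out of 41000, 3 for CEACAM1, 1 each for CEACAM5 and CEACAM6, and 2 for CEACAM7. CEACAM proteins sit at the cell surface and bind one another on neighboring cells. CEACAM1 crosses the membrane and, in its long-tailed form, carries inhibitory signaling motifs, whereas CEACAM5 (the tumor marker CEA), CEACAM6, and CEACAM7 are held by a lipid anchor. In the colon they are found mainly on the apical surface of mature epithelial cells, as part of the brush border glycocalyx, while β-catenin/TCF signaling is active at the crypt bottom.

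The study asked which genes depend on β-catenin and on the proposed coactivators MLLT10/AF10, DOT1L, BRG1 (SMARCA4), and p300 (EP300). All cells had been transfected for 72 h with 15 nM siRNA, controls with a control siRNA. Ls174T is a human colorectal cancer line that carries an activating β-catenin mutation, so Wnt signaling is always on, and it contributed 6 of the 12 arrays. On 2 of them β-catenin-depleted RNA was hybridized directly against si-control RNA, the second time with the dyes exchanged, so that both arrays measured the same pair of RNA samples and count as 1 replicate. That design is taken from the sample labels, since the study's methods speak of reference RNA for all arrays, and the β-catenin values below hold only if the labels are right. The other 4 held si-control, si-MLLT10, si-BRG1, or si-P300 RNA against universal human reference RNA. HEK293T is a human embryonic kidney line with an inducible Wnt pathway and contributed 6 arrays against the same reference: si-control in control medium (CM), and, after 9 h of Wnt3A medium, si-control cells and cells depleted of MLLT10/AF10, DOT1L, BRG1, or p300. Each condition is thus 1 sample of 1 cell line, no comparison between conditions could be tested, and no p-values are given.

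Values are log2 ratios, and the error given with ± or in parentheses is that of the scanner program's own error model for the array or arrays compared, which does not hold the spread between cultures. A probe was called well-measured in a comparison when 1 of the channels was more than 2-fold brighter than its surroundings on each of the arrays used, and a change past 2-fold is 1 unit on the log2 scale. Since a probe can pass through the channel where it is high, counts of members are given as descriptions. The siRNA targets fell in their own Ls174T samples: the most responsive probe of CTNNB1 (β-catenin) changed by -2.70, that of MLLT10 by -1.42, that of SMARCA4 by -2.53, and that of EP300 by -1.31. In HEK293T cells the corresponding values were -1.76 for MLLT10, -1.97 for DOT1L, -4.00 for SMARCA4, and -2.98 for EP300. After MLLT10/AF10 depletion in Ls174T cells only 1 well-measured probe of the 5 target genes fell past 2-fold, and after p300 depletion also only 1. Between 17 and 18 of 19 probes for colorectal epithelial markers were well above background on each Ls174T array, against 10 to 15 on the HEK293T arrays, where CDH17 never was. Of 6 probes for granulocyte genes, another source of CEACAM transcripts, CEACAM8 and FCGR3B were well above background on none of the 12 arrays, at most 4 were on any array, and the summed signal of the 6 was 57.2 to 155 in Ls174T against 61.5 to 234 in HEK293T. Of 5 fibroblast probes at most 1 was well above background on any Ls174T array. The arrays lay on 5 slides, and the β-catenin pair had the lowest signal, a median of 1.66 and 1.73 times the local background in the depleted channel.

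The 4 genes lie on chromosome 19 and their promoters resemble each other. CEACAM7, CEACAM5, and CEACAM6 are neighbors, whereas CEACAM1 lies further off, with other genes between. The 250 bases before the start of each gene are shown 5′ to 3′ because the genes moved together after β-catenin depletion. After BRG1 and p300 depletion CEACAM1 parted from the others in the deposited ratios, between arrays of different slides. The CEACAM1 rises were lost with another background correction (normexp, below), and the falls of the others were smaller with it. Whether the promoter sequences bear on any of these changes was not tested. All 4 were found in RefSeq, build GRCh38.p14, at chr19:42528482-42528731 on the minus strand for CEACAM1, chr19:41708376-41708625 on the plus strand for CEACAM5, chr19:41755280-41755529 on the plus strand for CEACAM6, and chr19:41688271-41688520 on the minus strand for CEACAM7. Capitals mark the E-box CACGTG of CEACAM5 and the bases aligned to it in the others.
CEACAM1: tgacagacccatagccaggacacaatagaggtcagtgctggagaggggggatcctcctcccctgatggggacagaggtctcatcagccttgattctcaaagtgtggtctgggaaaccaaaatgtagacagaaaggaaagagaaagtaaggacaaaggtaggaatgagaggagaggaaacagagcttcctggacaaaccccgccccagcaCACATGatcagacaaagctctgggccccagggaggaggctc
CEACAM5: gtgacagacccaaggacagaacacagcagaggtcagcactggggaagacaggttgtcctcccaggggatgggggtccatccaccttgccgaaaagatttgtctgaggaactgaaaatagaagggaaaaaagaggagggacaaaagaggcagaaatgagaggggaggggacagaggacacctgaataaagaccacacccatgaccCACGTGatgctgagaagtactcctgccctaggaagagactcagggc
CEACAM6: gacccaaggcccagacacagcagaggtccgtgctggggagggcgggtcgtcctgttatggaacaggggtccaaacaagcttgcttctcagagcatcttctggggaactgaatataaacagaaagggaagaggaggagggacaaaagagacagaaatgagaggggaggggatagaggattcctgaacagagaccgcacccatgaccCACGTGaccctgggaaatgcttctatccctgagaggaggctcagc
CEACAM7: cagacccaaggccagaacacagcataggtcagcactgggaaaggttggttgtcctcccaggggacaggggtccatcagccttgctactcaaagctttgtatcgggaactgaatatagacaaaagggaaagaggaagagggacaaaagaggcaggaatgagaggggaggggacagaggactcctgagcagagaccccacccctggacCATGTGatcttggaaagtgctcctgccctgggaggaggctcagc
After alignment with MAFFT, CEACAM5 and CEACAM7 shared 84.4% of aligned bases, CEACAM6 and CEACAM7 80.2%, and CEACAM5 and CEACAM6 78.1%. The CEACAM1 promoter shared 71.8%, 68.8%, and 66.4% with those of CEACAM7, CEACAM6, and CEACAM5. Of 263 alignment columns, 126 were identical in all 4 promoters. The E-box, to which USF factors bind, was intact in CEACAM5, 46 bases before the start, and in CEACAM6, 45 bases before it, whereas the aligned bases read CACATG in CEACAM1 and CATGTG in CEACAM7. On either strand CACGTG occurs in 6.34% of 35116 RefSeq promoter windows. The Sp1 motif GGGCGG, found in 42.6% of the windows, was present in CEACAM6 and, on the minus strand, in CEACAM1. Neither the TCF/LEF motif CTTTGAT (2.26% of windows) nor the CDX motif TTTATNG (8.93%) was found within these bases in any of the 4, which says only that these letters are absent from this stretch. The motifs do not overlap each other here.

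Depletion of β-catenin in Ls174T cells raised all 4 genes. The 5 well-measured probes lay between 2.68 and 3.63 on the log2 scale, that is 6.43- to 12.3-fold, with a median of 3.32, against a median of -0.02 over all 17706 well-measured features. All 5 were past 2-fold, where 4.24% of all features rose that far, and 5th to 95th percentiles over all features were -0.67 to 0.91. Each probe exceeded 2-fold on both arrays of the dye-swapped pair. With normexp background correction, which pulls dim signals together, the dimmer probes gave smaller rises, 2.34 (A_24_P382319) and 1.24 (A_23_P434118) for CEACAM1 and 1.80 for CEACAM7, against 3.01 for CEACAM5 and 3.19 for CEACAM6. In RNA of whole cultures, more expressing cells and more RNA per cell cannot be told apart. Over all features both arrays differed by a median of 0.161, and by less than 1 for 99.1%.

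**Figure D1:**
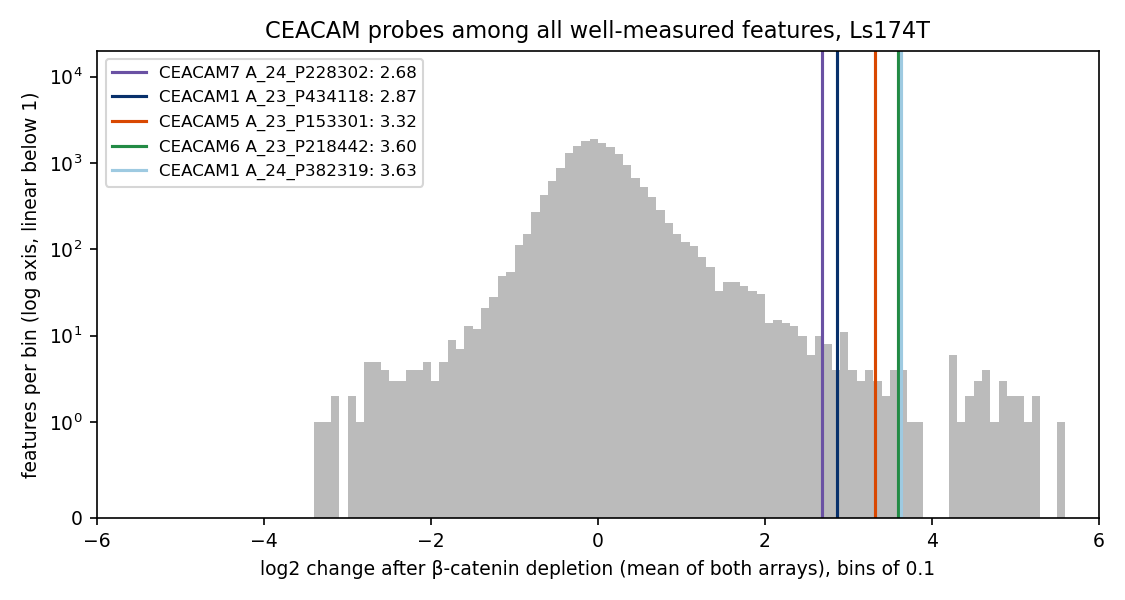
Number of well-measured features per bin of log2 change after β-catenin depletion in Ls174T (x, mean of both arrays, 17706 features; y, log axis that is linear below 1), with the CEACAM probes as vertical lines. All 5 lines lie at or above 2.68, in the sparse right tail, beyond the 95th percentile of 0.91.

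CEACAM6, a lipid-anchored member that binds itself and CEACAM5 (A_23_P218442), gave strong signals. Its processed signal was 3947 with β-catenin depleted and 289.8 in the si-control channel of the first array, and 2208 and 205 in those of the second. The log2 ratios were 3.77 (0.41) and 3.43 (0.38), a mean of 3.60 ± 0.28 or 12.1-fold. Only 34 of all well-measured features rose further. CEACAM5, which codes for CEA (A_23_P153301), gave 3428 against 338 and 2449.6 against 247. The ratios of 3.34 (0.37) and 3.31 (0.37) were the closest between both arrays among the well-measured CEACAM probes, with a mean of 3.32 ± 0.26, or 10.0-fold, and 42 features above it. Both genes were well above background in both channels on both arrays.

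CEACAM1, the transmembrane member, was seen with different precision by its 3 probes. Probe A_24_P382319, which is assigned to another RefSeq transcript than the other probes, gave signals of 756 against 50.7 and 820.2 against 80.3. Its ratios were 3.90 (0.42) and 3.35 (0.39), a mean of 3.63 ± 0.29 or 12.3-fold. Probe A_23_P434118 gave 229.8 against 51.5 and 178 against 14.9, with ratios of 2.16 (0.31) and 3.58 (0.63) and a mean of 2.87 ± 0.35. Its si-control channel was well above background on 1 of the 2 arrays, and the arrays differed by 1.43, more than for any other well-measured CEACAM probe. The remaining probe, A_23_P55738, was not well-measured and gave 1.40 (0.30) and 1.41 (0.95). All 3 probes thus pointed upwards on both arrays, with sizes that did not match.

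CEACAM7, a lipid-anchored member of the colonic brush border, rose by 2.68 ± 0.24 (6.43-fold) by probe A_24_P228302. The signals were 521 against 76.7 and 326 against 53.6, with ratios of 2.76 (0.34) and 2.60 (0.33). The other CEACAM7 probe, A_23_P130573, was dim. It was well above background in the depleted channel of the first array (71.9) and in no other channel of the 12 arrays, so it was well-measured in no comparison. Its ratios on the pair were 3.39 (0.71) and 1.85 (1.05), and the program left all but 1 of its ratios on the other arrays at 0.

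**Figure D2:**
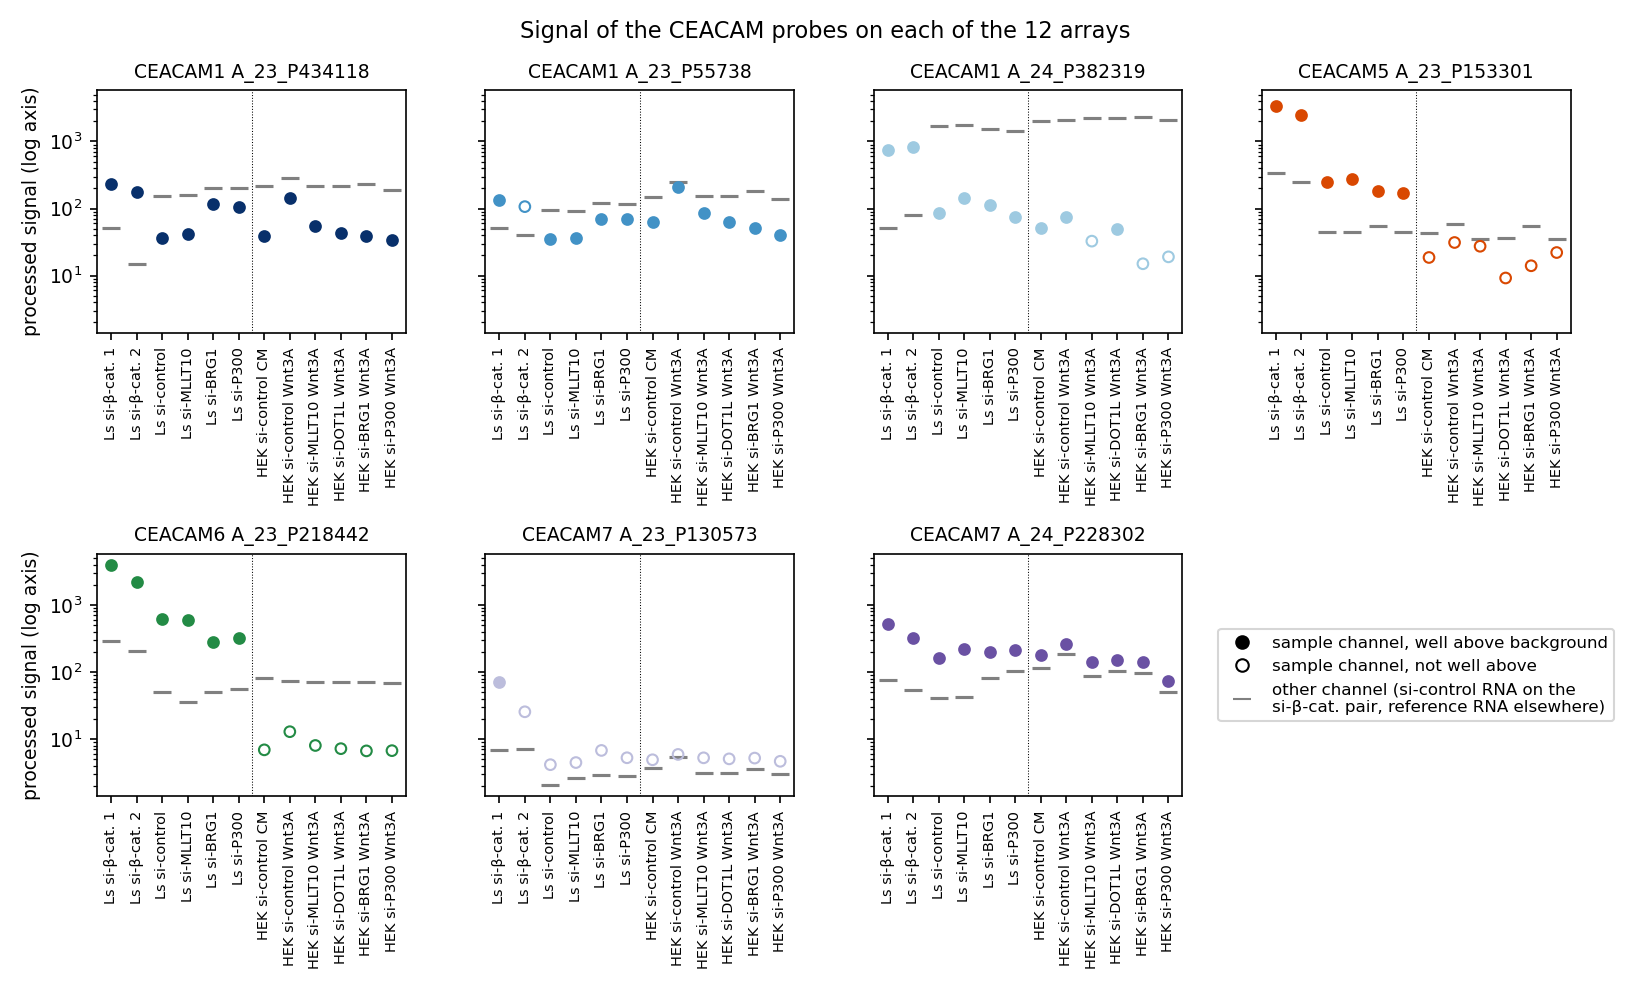
Processed signal (y, log axis) of the 7 CEACAM probes on each of the 12 arrays (x; a dotted line parts Ls174T, left, from HEK293T, right). Filled circles are sample channels well above background, open circles those that were not, and grey dashes the other channel, which is si-control RNA on the si-β-catenin pair and reference RNA elsewhere. CEACAM5 and CEACAM6 reach 3428 and 3947 with β-catenin depleted, and are open circles on all 6 HEK293T arrays.

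After MLLT10/AF10 depletion in Ls174T cells no CEACAM gene passed 2-fold. The 6 well-measured probes were all on the positive side, between 0.06 and 0.68, with a median of 0.29 against -0.01 over all 27369 features. With 0 of 6 past 2-fold, 1.74% of all features were past it in either direction. The si-control and si-MLLT10 arrays lay on the same slide. For CEACAM6 the sample-over-reference ratio was 3.62 in si-control and 4.11 in si-MLLT10 cells, a difference of 0.49 ± 0.59, and the sample signals were nearly equal at 614 and 607. CEACAM5 had ratios of 2.48 and 2.58 (0.10 ± 0.46) and CEACAM7 of 1.99 and 2.37 (0.38 ± 0.43). The CEACAM1 probes differed by 0.19 ± 0.41 (A_23_P434118), 0.06 ± 0.40 (A_23_P55738), and 0.68 ± 0.60 (A_24_P382319). Only the last exceeded its own program error.

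BRG1, the ATPase of a SWI/SNF chromatin remodeling complex, gave a split picture when depleted in Ls174T cells. CEACAM6 was lower, with a ratio to the reference of 2.44 against 3.62 in si-control cells, a change of -1.17 ± 0.50, or 2.26-fold lower. Its sample signal was 276 against 614. The other lipid-anchored members leaned the same way without reaching 2-fold. CEACAM5 had a ratio of 1.72 against 2.48 (-0.77 ± 0.42) and CEACAM7 of 1.27 against 1.99 (-0.72 ± 0.38).

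CEACAM1 moved the other way after BRG1 depletion. Probe A_23_P434118 had a ratio of -0.77 against -2.08, a change of 1.31 ± 0.37 or 2.49-fold, and its sample signal was 117 against 35.9. Changes of the other CEACAM1 probes were 0.61 ± 0.36 (A_23_P55738) and 0.53 ± 0.61 (A_24_P382319). In all, 1 of 6 well-measured probes was up past 2-fold and 1 was down, where 3.86% of 27722 features rose and 1.4% fell that far, so that the median over the members (-0.09) lay near that over all features (-0.02).

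Depletion of p300, a histone acetyltransferase, gave much the same values. CEACAM6 was 2.1-fold lower, with a ratio of 2.54 (-1.07 ± 0.51), and a sample signal of 326. CEACAM5 changed by -0.54 ± 0.43 to a ratio of 1.94, and CEACAM7 by -0.96 ± 0.37 to a ratio of 1.03. CEACAM1 rose past 2-fold by probe A_23_P434118, by 1.16 ± 0.38 to a ratio of -0.92, whereas A_23_P55738 changed by 0.63 ± 0.37 and A_24_P382319 by 0.04 ± 0.64. Again 1 of 6 well-measured probes was up and 1 down past 2-fold, where 4.15% of 28077 features rose and 1.76% fell. The comparisons with MLLT10/AF10, BRG1, and p300 depletion share their si-control array.

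**Figure D3:**
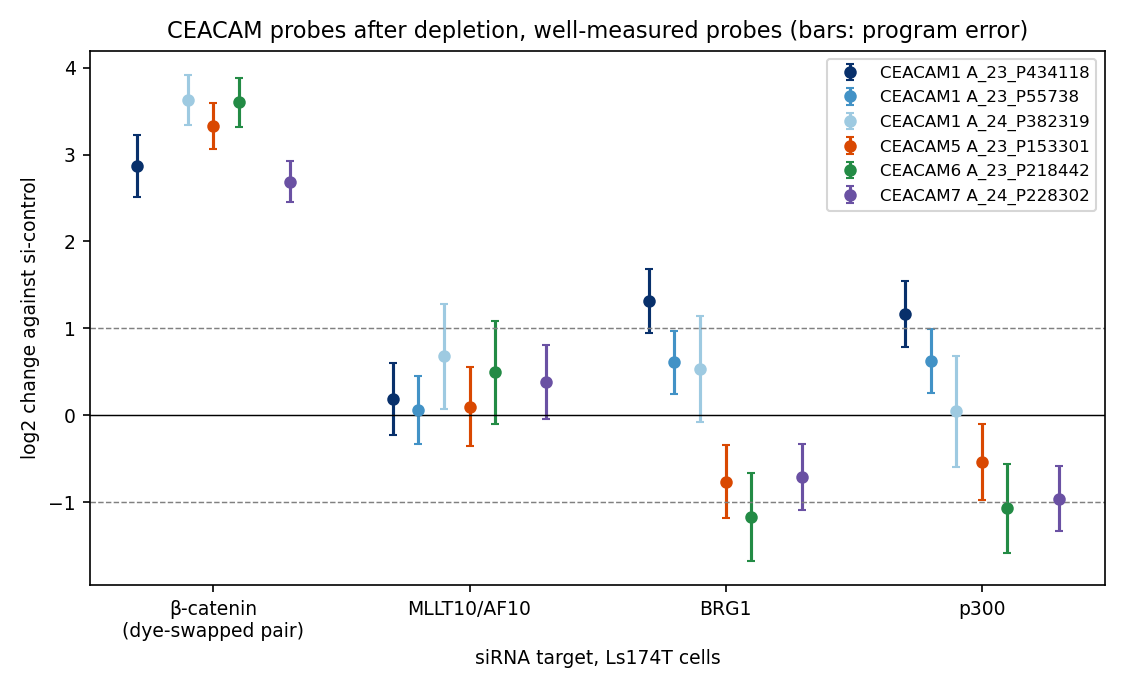
Log2 change against si-control (y) of each well-measured CEACAM probe for the 4 depletions in Ls174T cells (x), with the program error as bars and dashed lines at 2-fold. All 5 probes lie above 2.6 after β-catenin depletion, all 6 lie below 0.7 after MLLT10/AF10 depletion, and after BRG1 and p300 depletion the CEACAM1 probes lie above 0 and CEACAM5, CEACAM6, and CEACAM7 below it.

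The si-BRG1 and si-P300 arrays shared a slide other than that of si-control, so depletion and slide cannot be told apart in these comparisons. Against each other, on 1 slide, si-BRG1 and si-P300 cells differed by -0.23 to 0.49 over the 6 probes, each by less than its program error and none past 2-fold (2.28% of all features were). When the sample channel alone was used, scaled to its 75th percentile, CEACAM6 remained lower (-1.10 after BRG1 and -0.86 after p300 depletion) and CEACAM1 probe A_23_P434118 higher (1.76 and 1.61). CEACAM7, however, turned to 0.35 and 0.43, since its reference channel read 82.0 and 103 on those arrays against 40.7 on the si-control array. With normexp correction no CEACAM probe passed 2-fold in either comparison, and A_23_P434118 came to 0.05 and -0.00, and A_23_P55738 to -0.08 and -0.14. The falls were smaller too, at -0.93 and -0.66 for CEACAM6, -0.55 and -0.38 for CEACAM5, and -0.12 and -0.39 for CEACAM7.

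CEACAM5 and CEACAM6 were well above background in every Ls174T sample and in no HEK293T sample. In Ls174T cells the CEACAM6 ratio to the reference was 2.44 to 4.11 over 4 arrays, all well above background. In HEK293T cells it was -3.55 to -2.51 over 6 arrays, and the sample signal, 6.66 to 12.9, was well above background on none of them. CEACAM5 ratios were 1.72 to 2.58 in Ls174T and -1.98 to -0.36 in HEK293T, with HEK293T signals of 9.19 to 31.1, again never well above background. Neither probe was well-measured between the si-control arrays, so these ranges only describe the signals. How many of all features have ranges apart in this way was not counted. Between the si-control arrays of both lines (HEK293T in CM), 53.3% of all features differed past 1.5-fold in either direction. With the HEK293T signal held at the lowest level called well above background, si-control Ls174T cells had at least 37.5-fold more CEACAM6 signal than si-control HEK293T cells in CM, and at least 40.9-fold more than those in Wnt3A. These bounds compare single channels between arrays and are open to dye bias. For CEACAM5 the si-control sample signals were 248 in Ls174T and, in HEK293T, 18.6 in CM and 31.1 in Wnt3A, and no fold is given.

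CEACAM7 and CEACAM1 differed less between the lines. CEACAM7 (A_24_P228302) was well above background on all 10 reference arrays, at ratios of 1.03 to 2.37 in Ls174T and 0.46 to 0.69 in HEK293T. The si-control difference was 1.34 ± 0.37, or 2.53-fold, but 0.29 from the sample channel alone. For CEACAM1 the Ls174T values lay within or near the HEK293T range by 2 probes, with si-control differences of 0.38 ± 0.44 (A_23_P434118) and -0.15 ± 0.38 (A_23_P55738). Against the si-control Wnt3A array these differences were -1.09 and -1.17, both past 2-fold lower in Ls174T cells. Probe A_24_P382319 was higher by 1.01 ± 0.71, at ratios of -4.31 to -3.63 in Ls174T and -7.26 to -4.82 in HEK293T. The reference RNA was much brighter for this probe than the samples of either line, at signals of 1447 to 2304. Of 4 well-measured probes 2 were past 2-fold higher in Ls174T cells, where 14.3% of all features were.

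**Figure D4:**
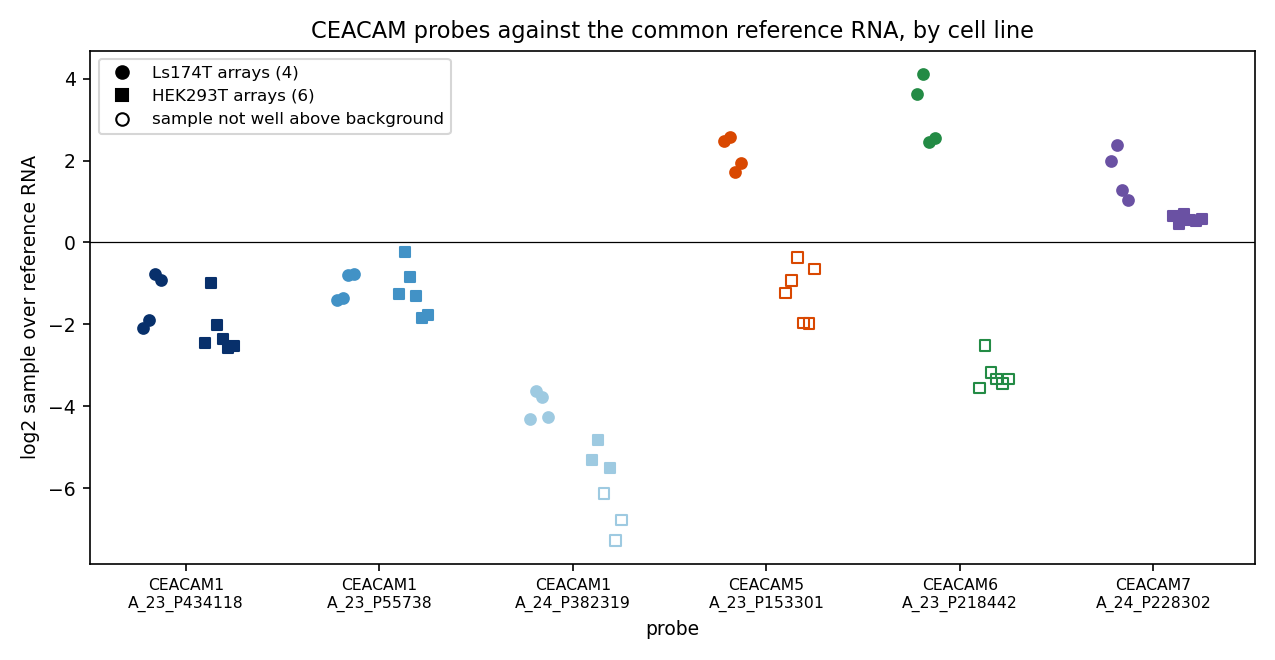
Log2 ratio of sample over reference RNA (y) for 6 CEACAM probes (x) on 4 Ls174T arrays (circles) and 6 HEK293T arrays (squares), open where the sample channel was not well above background. CEACAM5 and CEACAM6 lie above 1.7 in Ls174T and below 0 in HEK293T, whereas both lines overlap for CEACAM1 probes A_23_P434118 and A_23_P55738. The CEACAM7 probe A_23_P130573 is left out because the program set most of its ratios to 0.

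In HEK293T cells only CEACAM1 and CEACAM7 had well-measured probes. After Wnt3A, CEACAM1 was higher by 1.47 ± 0.39, or 2.78-fold, by A_23_P434118 (ratios of -2.46 in CM and -0.99 in Wnt3A). By A_23_P55738 it was higher by 1.02 ± 0.33, with ratios of -1.25 and -0.24, and A_24_P382319 differed by 0.49 ± 0.74. CEACAM7 differed by -0.19 ± 0.31, and by 0.65 from the sample channel alone. Thus 2 of 4 well-measured probes rose past 2-fold, where 1.39% of 29012 features did.

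Relative to the si-control Wnt3A array, the CEACAM1 probes were lower in all 4 depletions of HEK293T cells. Probe A_23_P434118 changed by -1.02 ± 0.37 with MLLT10/AF10, -1.38 ± 0.38 with DOT1L, -1.59 ± 0.40 with BRG1, and -1.53 ± 0.40 with p300 depleted. For A_23_P55738 the values were -0.62 ± 0.31, -1.06 ± 0.33, -1.59 ± 0.35, and -1.54 ± 0.35 in the same order. A_24_P382319 changed by -0.68 ± 0.75 with DOT1L depleted. Its sample channel was not well above background in the other depletions. Held at the lowest level called well above background, the signal was at least 2.88-fold (BRG1) and 2.65-fold (p300) below that of the Wnt3A control. With MLLT10/AF10 depleted the measured signal lay just above that level, so its 2.22-fold difference is no lower bound, and the ratios differed by -1.29 ± 0.80. These folds compare single channels between arrays. Past 2-fold were 2, 2, 3, and 3 of the well-measured CEACAM probes, where 1.74%, 1.62%, 4.41%, and 3.33% of all features fell that far. CEACAM7 differed by 0.07 to 0.23 where well-measured, but by -0.93 (MLLT10/AF10), -0.89 (DOT1L), and -1.11 (BRG1) from the sample channel alone.

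All of these HEK293T comparisons rest on the same si-control Wnt3A array, which was the only array on its slide, so they are not independent of each other and treatment and slide cannot be told apart. On that array CEACAM1 stood apart from all 5 others in HEK293T, with sample signals of 143 (A_23_P434118) against 33.5 to 54.1, and of 211 (A_23_P55738) against 40.0 to 85.6. The reference channel, which held the same RNA throughout, was also brighter there, at 283 against 192 to 234 and at 249 against 137 to 181. The part of that array in the CEACAM1 values was not tested. With normexp correction none of the CEACAM probes passed 2-fold in any of these 5 comparisons.

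The rest of the CEACAM family gave few measurements. Of 6 other members with a probe, CEACAM19 (-0.06) and CEACAM20 (-0.27) were well-measured after β-catenin depletion, and no well-measured probe of these genes passed 2-fold in the 4 Ls174T depletions. CEACAM3, a receptor of granulocytes, missed the filter with signals no more than 1.88 times background. Its sample channel was nonetheless well above background by the program's own test on both arrays of the β-catenin pair (77.9 and 49.9), and its ratios were 2.56 (0.56) and 2.54 (0.84). With the si-control channel held at the lowest level called well above background, CEACAM3 was at least 2.3-fold higher with β-catenin depleted. On the Ls174T reference arrays its sample signals were 35.0 in si-control, 67.7 in si-MLLT10, 16.5 in si-BRG1, and 14.4 in si-P300 cells. Those in si-BRG1 and si-P300 cells were not well above background. The ratio to the reference was 1.23 in si-control and 2.07 in si-MLLT10 cells. Its HEK293T signals of 5.28 to 9.16 were never well above background. CEACAM8, another granulocyte gene, was never well above background in either line, and of 12 probes for the related pregnancy-specific glycoproteins none was well-measured after β-catenin depletion.

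Other epithelial adhesion genes had a lower median than the CEACAM probes after β-catenin depletion, though LGALS4 rose as far. Over 21 well-measured probes, which covered 17 of the 20 genes on the list, the median was 0.57. Past 2-fold 5 probes rose, where 4.24% of all features did, and none fell. LGALS4, a galectin of the gut epithelium, rose most (3.29 ± 0.26), and CD44, a hyaluronan receptor, had the lowest value (-0.60). The other four that rose were LGALS3 (2.21), CDH17 (2.08), MUC13 (1.34), and GPA33 (1.24), named here after their values were seen. Of colorectal marker probes 10 of 17 rose past 2-fold, with KRT20, a keratin of mature colonic cells, at 4.78. The 10 well-measured probes of CEACAM1 signaling partners had a median of 0.05 and none passed 2-fold, with INSR highest at 0.64.

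The coactivator depletions in Ls174T cells gave other patterns for these lists. After MLLT10/AF10 depletion 1 of 25 adhesion probes was past 2-fold, that of the cadherin CDH17 (1.15 ± 1.15), and LGALS4 was lowest at -0.28. After BRG1 depletion none of 25 was, the lowest being the mucin MUC13 (-0.84). After p300 depletion 5 fell: MUC13 (-2.25), CDH17 (-1.68), and, chosen after their values were seen, LGALS3 (-1.24), GPA33 (-1.20), and CD44 (-1.04). Of the CEACAM1 partners in Ls174T cells only HAVCR2, an immune receptor, passed 2-fold in these 3 depletions, after that of p300 (-1.23).

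**Figure D5:**
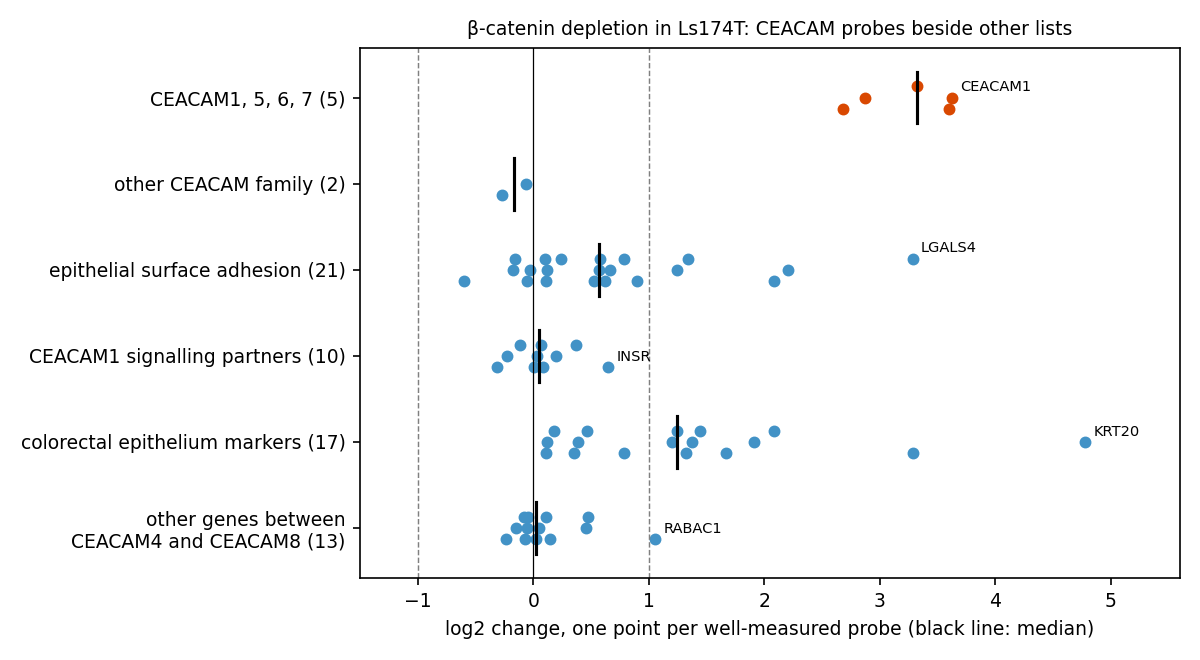
Log2 change after β-catenin depletion in Ls174T (x) for the well-measured probes of each list (y, number of probes in parentheses), with black bars at the medians, dashed lines at 2-fold, and the highest gene of each list of 3 or more named. The CEACAM probes (median 3.32) lie to the right of all but LGALS4 among adhesion genes, while the other genes between CEACAM4 and CEACAM8 have a median of 0.03.

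Most of the well-measured genes around the CEACAM genes did not change as they did. In the stretch of chromosome 19 from CEACAM4 to CEACAM8, chosen after values were known, 12 other genes with 13 well-measured probes ranged from -0.24 to 1.05 after β-catenin depletion, with a median of 0.03. RABAC1, a membrane trafficking gene, was the only well-measured one past 2-fold. The stretch holds 30 protein-coding genes, 27 of them with a probe, so many were not measured. CEACAM3, which also lies there, missed the filter but was at least 2.3-fold higher, as given above.

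The genes most like each member over the 4 Ls174T depletions were found by Euclidean distance between log2 changes, among 9594 genes well above background in every Ls174T sample. For CEACAM5 they were SDCBP2 (0.40), CA1 (0.43), LGALS4 (0.52), PLA2G10 (0.58), and REG4 (0.71), and CEACAM7 and CEACAM6 ranked 8 and 9. For CEACAM6 they were MALL (0.73), CEACAM5 (0.82), TFF2 (0.88), LGALS4 (0.92), and SDCBP2 (1.03), with CEACAM7 next. CEACAM7 was nearest to CD68 (0.17), followed by CYP4F8 (0.52), ACOX2 (0.54), AGR2 (0.55), and EFNB2 (0.55). CEACAM1, taken at the mean of 2 probes, had HSD17B2 (0.61), CLIC5 (0.88), RSPH1 (0.90), and BHLHE41 (0.92) among its nearest genes. It ranked 175 for CEACAM5, 229 for CEACAM6, and 745 for CEACAM7. CEACAM1 was thus less near to the other members than they were to each other, in changes after BRG1 and p300 depletion that depended on the background correction. With normexp the CEACAM1 rises were lost, and the CEACAM7 falls shrank to -0.12 (BRG1) and -0.39 (p300). The likeness covers 4 differences, 3 of which share a control array.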

How the data were processed

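Total RNA of 12 samples was hybridized to dual-color 4x44K arrays. The authors read the scans with Agilent Feature Extraction (8.5.1.1 in the submitters' processing notes, 10.5.1.1 in the file headers). The intensities deposited by the authors are median, local background, and processed signals, the last corrected by the program for background and for dye. Each deposited log10 ratio is processed Cy5 over processed Cy3 signal, set to 0 where neither channel was usable. The deposited table of log10 values matched them within 1.56e-05 (log2), with the sign of 1 array of the pair turned.

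Ratios were converted to log2, turned to sample over reference or depleted over si-control, averaged over the dye swap, and subtracted between arrays, in Python 3.11.15. Control spots and 84 to 179 outliers per array were left out of 45015 features, and no feature was saturated. Symbols came from RefSeq for 27612 of 29084 features with an accession (94.9%). Steps were tested on simulated data. Alternatives, with limma 3.58.1 in R 4.3.3, were normexp (offset 50) with loess, the sample channel alone, other filters, centering, a 1.5-fold threshold, and single arrays. Bounds used loess and Aquantile on processed signals. Promoters were aligned with MAFFT 7.526. The members, lists, and naming rules (all members, siRNA targets, other CEACAM and related genes where well above background, the largest adhesion rise and fall, and the 5 nearest genes) were chosen with earlier results of these data known. The number of arrays, 1 per condition, limits the precision. Some results that the naming rules would give are not reported here.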

Additional observations from a re-analysis of the deposited data

Results flagged for a closer look

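CEACAM1 had opposite signs in the cell lines after the same depletion. After BRG1 depletion probe A_23_P434118 changed by 1.31 in Ls174T and by -1.59 in HEK293T cells, and A_23_P55738 by 0.61 and -1.59. After p300 depletion A_23_P434118 changed by 1.16 in Ls174T and by -1.53 in HEK293T cells, and A_23_P55738 by 0.63 and -1.54. After MLLT10/AF10 depletion A_24_P382319 changed by 0.68 in Ls174T and by -1.29 in HEK293T cells, where its depleted channel was not well above background. Each value stands on 1 array per condition, and the difference between the lines was not tested. The HEK293T values share the si-control Wnt3A array, on which CEACAM1 stood apart, and the Ls174T values after BRG1 and p300 depletion compare arrays of different slides. With normexp correction the Ls174T values after BRG1 and p300 depletion were 0.05 and -0.0049 for A_23_P434118, and -0.08 and -0.14 for A_23_P55738, so that the signs no longer differed except for A_23_P434118 after BRG1 depletion.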

How the results depend on the processing

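Of 341 values of single probes under alternatives, 291 moved by less than the program error, 49 by more, and 1 called value reversed. That was CEACAM1 A_23_P434118 after p300 depletion in Ls174T, at -0.0049 with normexp. Many of the 341 could not move, since the filters, kept outliers, and the deposited table leave a probe's value as it is. With normexp 27 values stayed within the error, 24 moved, and 1 reversed. For the sample channel alone 31 stayed and 21 moved. The rise after β-catenin depletion was past 2-fold for every well-measured probe under every alternative, with medians of 3.05 to 3.35 and 5 to 6 probes for the single arrays, 2.34 with normexp, 2.87 with no filter, and 2 of 2 probes with both channels above 2-fold background.

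Besides the β-catenin median (2.34 with normexp, 2.87 with no filter), those after BRG1 and p300 depletion moved in Ls174T cells. The BRG1 median was 0.41 with the sample channel alone and 0.53 with no filter, and the p300 median 0.16 with the sample channel alone. For Ls174T against HEK293T the median was 1.34 with both channels above background and -0.29 against the Wnt3A array. In HEK293T cells, normexp, the sample channel alone, and both channels above background gave 0.37, 1.28, and -0.19 for Wnt3A, -0.18, -1.29, and 0.23 for MLLT10/AF10, and -0.37, -1.38, and 0.092 for DOT1L. For BRG1 and p300 in HEK293T normexp gave -0.64 and -0.49, the sample channel alone -2.20 and -2.09, and no filter -1.06 and -0.82. The filter on both channels left 1 probe, CEACAM7, in these HEK293T comparisons, and none for BRG1 and p300.

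With normexp 0 probes passed 2-fold after BRG1 and p300 depletion in Ls174T, between the lines, and in all 5 HEK293T comparisons. With both channels above background the counts were 0 after BRG1 and p300 depletion in Ls174T, 1 between the lines, and 0 for Wnt3A, MLLT10/AF10, and DOT1L in HEK293T. At 1.5-fold the Ls174T counts of 6 probes were 1 (MLLT10/AF10), 5 (BRG1), and 4 (p300), where 4.52%, 12.8%, and 14.9% of all features were past it. With no filter they were 1 for BRG1 against p300 and 4 between the lines, where the sample channel alone gave 1. The causes were not tested beyond fewer probes under the stricter filter. No paired analysis was possible because each condition has 1 sample. The probes' sequences were not used, so how far the resemblance of CEACAM transcripts lets a probe read another member cannot be judged here.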

Other observations

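The reference channel held the same RNA on 10 arrays, yet for CEACAM7 probe A_24_P228302 it read 40.7 to 188, while for CEACAM6 it read 35.2 to 80.9 and for CEACAM1 probe A_24_P382319 1447 to 2304. For CEACAM7 the lowest readings, 40.7 and 42.7, were on the Ls174T si-control and si-MLLT10 arrays and the highest, 188, on the HEK293T si-control Wnt3A array, where its sample channel was also highest at 258.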
